A study of Mus musculus with 8 samples.

Results

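The genes described here are the 99 genes that carried 6 or more m6A peaks in the livers of control mice, out of 9020 genes with at least 1 peak (1.10%). They were chosen by the number of control peaks, so that number is the rule and not a result. They held 692 of the 15635 control peaks (4.43%) and 581 of the 19185 peaks of *Wtap*-HKO livers (3.03%). The list of peaks that differ between the genotypes held 73 rows for them, of 3870 in all.

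The peaks come from m6ARIP-seq, in which fragments of poly(A)+ RNA pulled down with an antibody to m6A (IP) are sequenced together with fragments taken before it (input). Control mice were *Wtap* flox/flox, with an intact but floxed *Wtap* gene. *Wtap*-HKO mice carried the same floxed alleles and a Cre recombinase under the albumin promoter, which deletes *Wtap* in hepatocytes and leaves it in the other cells of the liver. Both groups were mice of 8 weeks on normal chow, of the strain C57BL/6 by the labels and C57BL/6J by the methods, with 2 IP and 2 input libraries each (8 in total). Each replicate was a pool of RNA from several mice. The deposited lists combine the replicates of a genotype, so no value has an SD, no difference can be set against the spread between replicates, and the depth of the libraries is unknown. A change of m6A per transcript and a change in the number of transcripts or cells that carry it cannot be told apart in such lists. *Wtap* itself had 3 peaks in each list, which does not check its deletion. Of 9 hepatocyte markers, 5 had a control peak (*Alb*, *Apob*, *Apoa1*, *Hnf4a* and *Cyp2e1*) and 5 a *Wtap*-HKO peak, and of 5 endothelial markers 4 had one in each list. Markers of other cells were listed with peaks more often in *Wtap*-HKO livers. The *Wtap*-HKO list was also the larger over all genes, with 19185 peaks beside 15635 in control. They were 3 of 6 in control and 5 of 6 in *Wtap*-HKO livers for Kupffer cells and leukocytes, 1 and 4 of 5 for stellate cells and fibroblasts, and 1 and 2 of 4 for cholangiocytes. The part of these cells in the comparisons that follow was not tested.

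m6A is written into nuclear RNA by a methyltransferase complex in which METTL3 holds the catalytic site, METTL14 binds RNA and WTAP keeps the pair in nuclear speckles. The complex prefers an adenosine in the core GGAC, and methylated sites are known to gather in long internal exons and near stop codons. Transcripts with a long uninterrupted exon can therefore carry many separate sites. Reader proteins that bind m6A affect the splicing, translation and decay of the transcript.

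Sequence was read for the few peaks of these genes that reach into a RefSeq promoter window (250 bases before to 50 bases after a start, GRCm38.p6) of the gene itself or of a neighbour, and is given here to show what the methylation core looks like within them. The core GGAC, searched on the transcribed strand and printed in capitals, was present in 6 of 24 stretches of control peaks, each 8 to 246 bases long. The same stretches of all 32851 windows held it in 25.4% of cases on average, so the control peaks did not stand out from promoter sequence by this count. In the *Wtap*-HKO peaks it was present in 7 of 43 stretches, against 19.5% of the same stretches of all windows. Up to 30 bases are shown, cut where the peak or the window ends. The first 5 lie in control peaks that had a *Wtap*-HKO peak over them, that of *Eme2* in a control peak that had none, and those of *Aff1* and *Slfn8* in peaks of the *Wtap*-HKO list alone. Lines are named by the gene that carries the peak. The windows that hold the first 5 start at other genes, *Gm45974* for *Cic*, *9530052E02Rik* for *Irs2*, *Ddx31* for *Gtf3c4* and *Il17rb* for *Chdh*. The *Wtap*-HKO peaks that hold the *Gtf3c4* and *Chdh* sequences also had an edge within 200 nt of the 5′ end of the named gene.
*Cic*, chr7:25271033-25271062, plus strand: aggaggctgagcgGGACcctggagctgagg
*Irs2*, chr8:11007671-11007700, minus strand: gctgcggccactcGGACagcttcttcttca
*Irs2*, chr8:11007808-11007837, minus strand: cctgaaacctaagGGACtgggccagagcaa
*Gtf3c4*, chr2:28840200-28840229, minus strand: agatgagcgaggcGGACcaggccctggtgg
*Chdh*, chr14:30009117-30009146, plus strand: cgcggcactcccgGGACgccagttaaagag
*Eme2*, chr17:24895039-24895057, minus strand: aaGGACttatggcggaggt
*Aff1*, chr5:103754176-103754205, plus strand: gacacagagctgaGGACgcggctgccgaga
*Slfn8*, chr11:83020738-83020767, minus strand: gggctgcttttctGGACttcacaggcaggt

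The peak around the *Cic* sequence had a fold enrichment (IP over input, a linear ratio) of 11.6 in control and 12.3 in *Wtap*-HKO livers. For *Irs2*, which encodes an insulin receptor substrate, the values were 6.63 and 6.25. The *Irs2* sequence at chr8:11007671-11007700 lay in the control peak but outside the *Wtap*-HKO peak. For *Gtf3c4*, a subunit of the RNA polymerase III factor TFIIIC, they were 3.43 and 2.25, and for the choline dehydrogenase gene *Chdh* they were 2.21 and 4.16. The *Eme2* control peak had a value of 3.32. The peaks found in *Wtap*-HKO livers alone had values of 6.47 in *Aff1* and 29.8 in *Slfn8*.

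RefSeq lists 96 of the 99 genes as protein coding, 2 as lncRNA and 1 as misc_RNA. The gene span had a median of 54230 nt (2936 to 373587 nt), beside 24014 nt for 7953 other genes with a control peak and a span. Most neighbouring peaks lay close together, with a median gap of 539 nt and 386 of 593 gaps (65.1%) under 1000 nt. In genes with 2 to 5 control peaks the median gap was 1226.5 nt, and 47.4% of gaps were under 1000 nt. Gaps were taken along the chromosome, so they include introns, and rows that overlap give gaps below 0. The rule asks for many peaks in a gene, so shorter gaps are in part fixed by it. Only 40 of the 692 peaks (5.78%, 95% Wilson interval 4.27 to 7.78%) were joined from more than 1 exonic block, beside 14.9% of the peaks of all other genes. The median fold enrichment was 5.52 in these genes and 5.51 over all control peaks.

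Of the 99 genes, 56 had exactly 6 control peaks, 25 had 7 and 18 had 8 or more. *Ahnak*, which encodes a giant scaffold protein of the plasma membrane, had the most with 19. It was followed by *Gm8995* with 14, by *Spen*, a corepressor that acts in X inactivation, with 13, and by *Son*, a nuclear speckle splicing protein, with 12. The histone H3K4 methyltransferase gene *Kmt2d*, the nucleosome remodelling gene *Bptf* and the architectural lncRNA *Neat1* had 10 each. The cytolinker gene *Plec*, the transcription factor gene *Maf*, the zinc finger gene *Zfp646*, the unconventional myosin gene *Myo18a* and the splicing factor gene *Srrm2* had 9 each. In *Wtap*-HKO livers the numbers were 21 for *Ahnak*, 9 for *Gm8995*, 14 for *Spen*, 11 for *Son*, 10 for *Kmt2d*, 7 for *Bptf* and 8 for *Neat1*. They were 6 for *Plec*, *Maf* and *Zfp646*, 11 for *Myo18a* and 9 for *Srrm2*. *Neat1*, *Tug1*, *Gm8995* and *Gm1966* were given no symbol in the lists and are named from the RefSeq span that holds their peaks.

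A row of the lists is not always a separate site. The 10 rows of *Neat1* were 5 pairs that overlap each other, the 14 rows of *Gm8995* covered 10 separate stretches and the 9 rows of *Maf* covered 6. After such rows were merged, 97 genes still had 6 or more peaks, and the pair that did not were *Neat1* with 5 and *Itpkc* with 4. In 8 of the genes, 19 rows shared bases with a row listed for another gene id, the most in *Gm38394*, which lies over *Zc3h11a* and *Zbed6*, and in *Lats2*, which is listed under 2 gene ids. Reads of such genes cannot be assigned to one of them.

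By function, the largest of the gene lists used was that of chromatin and transcription co-regulators, with 19 of the 99 genes. These 19 were 12.7% of the 150 genes of that list with a control peak. They included *Spen*, *Bptf*, *Ankrd11*, *Atrx*, *Tnrc18*, *Asxl1*, *Hivep1*, *Aff1*, *Cic* and *Chd7*. Histone methyltransferases that mark active genes were also among them (*Kmt2a*, *Kmt2c*, *Kmt2d*, *Ash1l* and *Nsd1*). Zinc finger and homeodomain factors gave 11 genes (3.01% of 366), RNA binding and splicing proteins 6 (4.92% of 122), cytoskeletal proteins and scaffolds 6 (6.25% of 96), signalling proteins 6 (3.85% of 156) and other transcription factors 4 (3.96% of 101). Of 75 genes of lipid, carbohydrate and amino acid metabolism with a control peak, 1 was among the 99 (*Apob*), and of 48 genes of plasma proteins, complement and coagulation there was 0. The lists, which were chosen with earlier results of these data known, left 42 of the 99 genes without a class. By a grouping made after their names were seen, these and 4 listed genes included 8 interferon-inducible or innate immune genes (*Samd9l*, *Parp14*, *Helz2*, *Rnf213*, *Znfx1*, *Slfn8*, *Nlrp12* and *Nlrp6*).

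How the number of peaks compared in the absence of hepatocyte *Wtap* was examined next. Per gene, the mean was 6.99 peaks in control and 5.87 in *Wtap*-HKO livers. The number was lower in 60 genes, equal in 22 and higher in 17, and 54 of the 99 genes still had 6 or more peaks. Because the genes were selected on a high control number, a lower number in the other list is in part fixed by the rule. The reverse choice shows it: the 150 genes with 6 or more *Wtap*-HKO peaks held 1063 peaks in *Wtap*-HKO and 739 in control livers, and 54 genes met both rules. At the edge of the rule, the 56 genes with exactly 6 control peaks had a mean of 5 *Wtap*-HKO peaks and the 143 genes with 5 control peaks had a mean of 4.29.

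**Figure D1:**
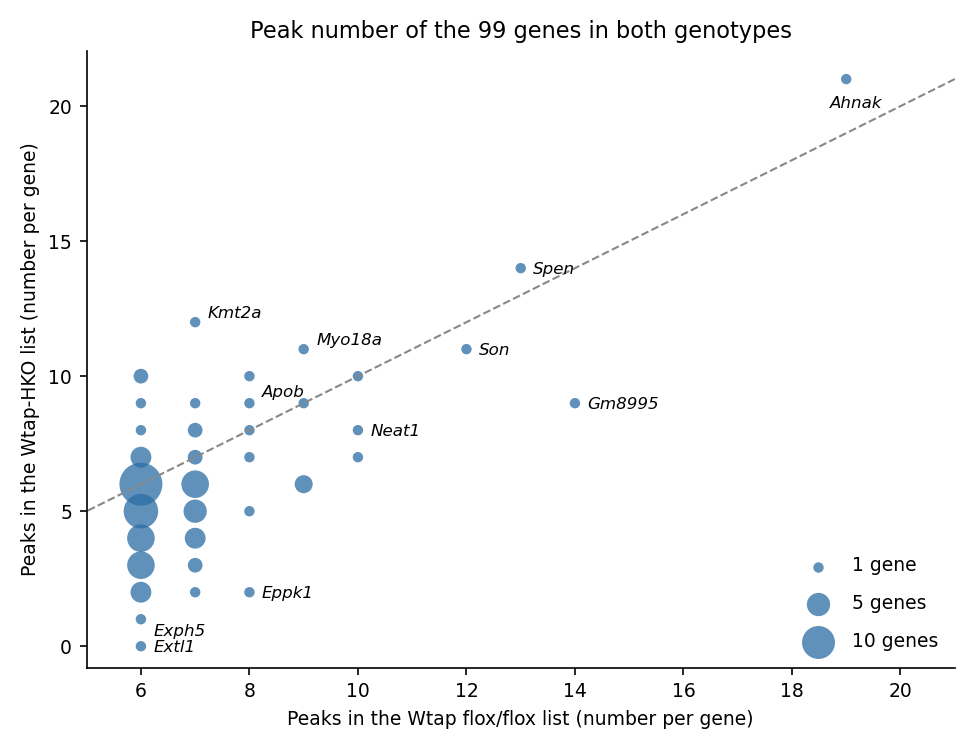
Number of peaks per gene in the control list (horizontal) and in the *Wtap*-HKO list (vertical) for the 99 genes, where the area of a point is the number of genes at that pair of values and the dashed line marks equal numbers. Points lie below the line for 60 genes and above it for 17, and all points start at 6 on the horizontal axis because of the rule.

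The length under a peak was nearly the same in both lists. The peaks of the 99 genes covered 229.9 kb of exonic sequence in control and 231.5 kb in *Wtap*-HKO livers, overlaps counted once. Over all genes with a peak the *Wtap*-HKO list covered more, at 5131 kb in control and 6137 kb in *Wtap*-HKO livers. The mean length was 338.5 nt in control and 408.3 nt in *Wtap*-HKO livers for these genes, beside 334.8 and 326.0 nt over all peaks. Of the 692 control peaks, 533 had a *Wtap*-HKO peak over at least 1 exonic base on the same strand and are called kept, while 159 had none. Those 533 faced 491 *Wtap*-HKO peaks, of which 54 spanned 2 or more control peaks, and 59 control peaks were covered by 2 or more *Wtap*-HKO peaks. The other 90 *Wtap*-HKO peaks lay over no control peak.

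The genes with the largest surplus of *Wtap*-HKO peaks were *Kmt2a* (7 control and 12 *Wtap*-HKO peaks), *Hivep1* (6 and 10), *Dchs1* (6 and 10), *Tnrc18* (6 and 9) and, with 2 more each, *Ahnak* (19 and 21), *Myo18a* (9 and 11), *Gm1966* (8 and 10), *Golgb1* (7 and 9) and *Helz2* (6 and 8). In *Kmt2a*, a histone H3K4 methyltransferase, all 7 control peaks were kept, at fold enrichments of 3.81 to 11.8 in control, and 5 further peaks of 3.41 to 5.81 appeared. In *Hivep1*, a large zinc finger DNA-binding protein, 5 of 6 control peaks were kept and 5 further peaks of 2.39 to 5.60 appeared, with midpoints between 0.782 and 0.841 of the way along the gene span. *Dchs1*, a protocadherin of planar cell polarity, had control peaks of 5.97 to 31.6 and 7 further *Wtap*-HKO peaks of 13.1 to 33.5. A single *Wtap*-HKO peak of 76.8 lay over 4 of its control peaks. In *Tnrc18*, all 6 control peaks were kept and 2 further peaks were listed, at 2.62 and 5.82.

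The 5 genes with the largest deficit were *Eppk1* (8 control and 2 *Wtap*-HKO peaks), *Extl1* (6 and 0), *Gm8995* (14 and 9), *Sowahb* (7 and 2) and *Exph5* (6 and 1). All 6 control peaks of *Extl1*, an exostosin-like glycosyltransferase, were without a counterpart, 5 of them between 3.51 and 4.47 and 1 at 14.3. *Eppk1*, a cytolinker of the plakin family, kept 2 of 8 peaks. The enrichment of these was 4.86 and 3.90 in control and 2.73 and 2.94 in *Wtap*-HKO livers, while the 6 without a counterpart had values of 2.73 to 7.22. *Exph5*, an effector of RAB27 in vesicle traffic, kept 1 of 6 peaks, at 5.97 in control and 4.31 in *Wtap*-HKO livers, and its strongest peak (9.54) was not kept. *Sowahb* kept 2 of 7 peaks, at 4.98 and 6.83 in control and 5.42 and 4.42 in *Wtap*-HKO livers. *Nlrp12*, an innate immune receptor gene, kept 1 of 6 peaks, at 10.5 and 4.06. In *Gm8995* every control row had a *Wtap*-HKO peak over it, so its smaller number came with no bare site, and merging overlapping rows gave 10 and 7 separate stretches.

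**Figure D2:**
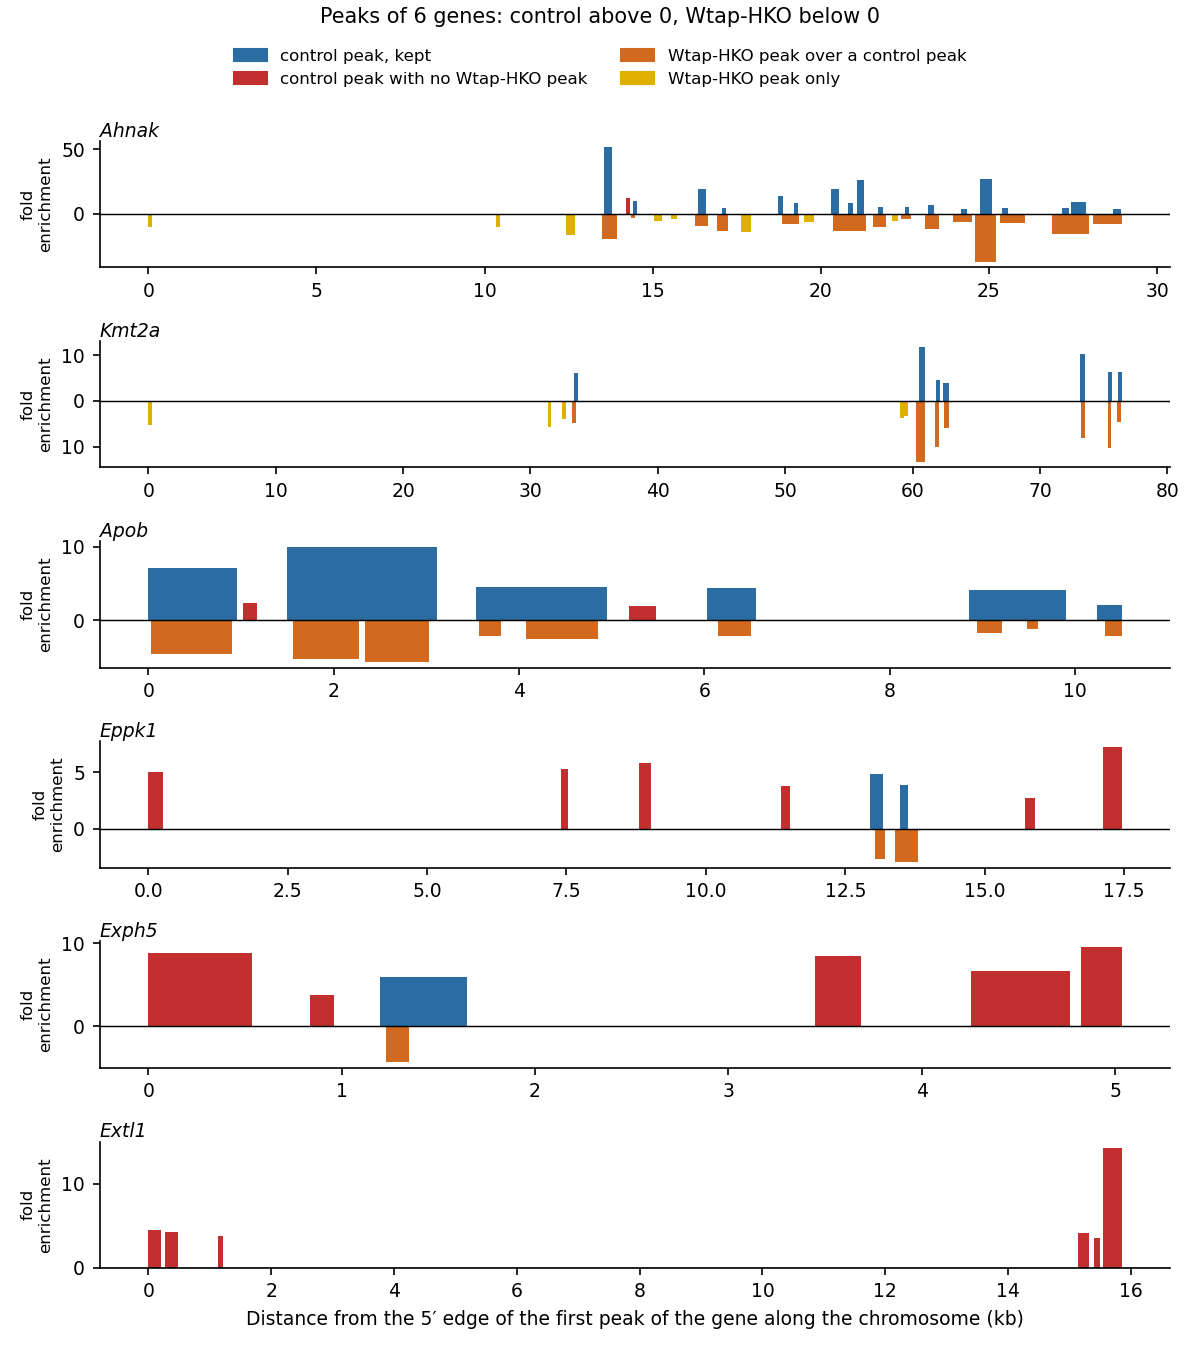
Exonic blocks of peaks of 6 genes along the chromosome, read 5′ to 3′, with distance in kb from the first peak edge on the horizontal axes and fold enrichment (IP over input) on the vertical axes, control above 0 and *Wtap*-HKO below 0; blocks narrower than 0.4% of the axis are widened to that width to be visible. *Ahnak* and *Kmt2a* show *Wtap*-HKO peaks with no control peak (yellow), the wide peaks of *Apob* are lower in *Wtap*-HKO, and *Eppk1*, *Exph5* and *Extl1* hold 6, 5 and 6 control peaks without a counterpart (red).

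*Ahnak* shows how sites within 1 transcript went different ways. All of its 19 control peaks lie between chr19:9002864 and chr19:9018231 on the plus strand, and 18 were kept. Its strongest peak, near the 5′ end of that stretch, had a fold enrichment of 51.8 in control and 19.5 in *Wtap*-HKO livers. 2 others close by were also lower, at 10.1 and 3.52 and at 19.3 and 9.38. The next peak on the 3′ side of these had the largest rise of the gene, from 4.17 to 13.1. Farther 3′ the *Wtap*-HKO value was the lower one at a peak of 5.12 and 4.26, and it was the higher one at 27.2 and 36.9 for the peak of 361 nt, at 4.57 and 6.94 for the next, and at 3.62 and 7.58 for the last. Of 11 peaks matched one to one, 3 were more than 2 times lower and 2 more than 2 times higher in *Wtap*-HKO livers. The median log2 ratio of *Wtap*-HKO over control fold enrichment at these 11 peaks was 0.60, so most of them had the higher value in *Wtap*-HKO.

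*Apob* was the only one of the 99 genes on the lists of metabolism or plasma proteins. It encodes the structural protein of VLDL and had the most rows in the differential list, with 6. Its 8 control peaks were unusually wide, up to 1619 nt, and ran from chr12:8006333 to chr12:8016835 on the plus strand. The 2 peaks without a counterpart were among its weakest, at 2.32 and 1.92. Its strongest control peak, at 10, lay under a pair of *Wtap*-HKO peaks of 5.30 and 5.71. The next, at 7.09, faced a value of 4.69. Further along the transcript a peak of 4.46 faced values of 2.17 and 2.59, one of 4.32 faced 2.15 and one of 4.14 faced 1.76 and 1.26. The last peak had 2 in control and 2.14 in *Wtap*-HKO livers, the single kept site of *Apob* at which the *Wtap*-HKO value was higher. The 9 *Wtap*-HKO peaks of *Apob* are thus 1 more than in control although each of the wide control peaks faced lower enrichment.

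The share of control peaks without a *Wtap*-HKO counterpart was 23.0% in the 99 genes (159 of 692, 95% Wilson interval 20.0 to 26.3%). Over all control peaks it was 19.9%, and in the genes outside the 99 it was 19.8%, a difference of 3.22 percentage points (95% Newcombe interval 0.17 to 6.56). Among genes with peaks in both lists, which leaves out 1 of the 99, the shares were 22.3% and 13.5%, a difference of 8.83 points (5.82 to 12.1). This filter takes out genes whose control peaks all lack a counterpart, which is rare by the rule among genes with 6 or more. The wider difference is therefore in part fixed by the filter and the rule. Intervals throughout cover counting error only, and peaks that share a gene are not independent of each other. By number of control peaks per gene the share was 19.7% for 1 peak, 20.1% for 2, 19.8% for 3, 16.7% for 4 and 23.2% for 5, so no steady order with the number was seen. The bare sites were not spread evenly. In 28 genes every control peak was kept, in 27 genes 1 was not, and 19 genes in which at least 50% were not kept held 75 of the 159. The 28 genes included *Gm8995*, *Maf*, *Gm1966*, *Kmt2a* and *Tnrc6c*, a gene of the microRNA silencing complex.

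Bare sites had lower enrichment than kept sites. The median control fold enrichment was 6.13 for kept and 3.76 for bare sites, and the median length was 300 and 151 nt. In the lowest quartile of enrichment (up to 3.39) 40.9% of the members' peaks were without a counterpart (65 of 159), in the second 28.5%, in the third 16.3% and in the highest (from 9.71) 5.96% (9 of 151). In all other genes these shares were 34.9%, 21.5%, 12.04% and 10.5%. Within a gene, the strongest control peak was not kept in 9 of 99 genes and the weakest in 45 of 99 (45.5%, 95% Wilson interval 36.0 to 55.2%). In the 1467 genes with 3 to 5 control peaks the weakest was not kept in 31.1%, but the weakest of 6 or more is by the rule a lower extreme, with a median enrichment of 2.83 against 3.35, so the gap between these shares is in part fixed. A weak peak is nearer to the detection limit of the caller in either list, and the part of that limit in these shares was not tested.

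**Figure D3:**
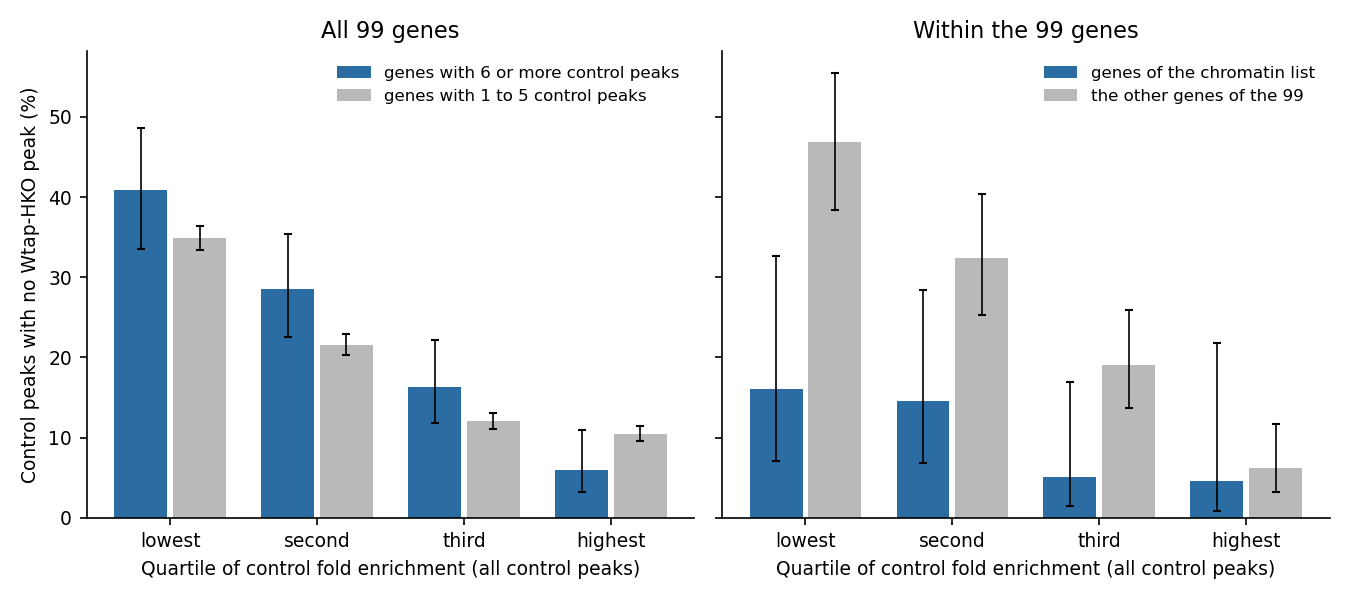
Share of control peaks with no *Wtap*-HKO peak over them (%, vertical) by quartile of control fold enrichment over all control peaks (horizontal), with 95% Wilson intervals of counting error as bars. On the left the 99 genes run from 40.9% to 5.96%, beside 34.9% to 10.5% in genes with 1 to 5 control peaks. On the right the 19 genes of the chromatin list run from 16.1% to 4.55%, beside 46.9% to 6.20% in the other 80.

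Within the 99 genes, the chromatin list had a smaller share of bare sites than the rest. The list was chosen with earlier results of these data known, so it is not independent of them. Of the 133 control peaks of its 19 genes, 14 were without a counterpart (10.5%), against 145 of 559 in the other 80 genes (25.9%). The difference was -15.4 percentage points (95% Newcombe interval -21.0 to -8.17, counting error only). The median control enrichment was 5.07 for the chromatin list and 5.57 for the other 80 genes. In the lowest quartile of enrichment the shares were 16.1% (5 of 31) and 46.9% (60 of 128), in the second 14.6% and 32.4%, in the third 5.13% and 19.1% and in the highest 4.55% and 6.20%. Genes of the chromatin list with fewer than 6 control peaks lay on the same side, with 13.4% (49 of 365) against 19.9% in all other such genes. The 19 genes held 139 *Wtap*-HKO peaks, 27 of them over no control peak. Fewer peaks were listed in *Wtap*-HKO for 7 of the 19 genes, as many for 5 and more for 7.

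The 11 zinc finger and homeodomain genes had 76 control and 57 *Wtap*-HKO peaks, with 21 bare sites (27.6%), and 9 of the 11 had fewer peaks in *Wtap*-HKO, 0 more. The 4 other transcription factor genes had 7 bare sites of 27. Shares nearer to that of the chromatin list were seen in the 6 RNA binding genes, with 6 bare sites of 46. The 6 genes of the cytoskeletal list had 9 of 57. However, 3 more cytoskeletal genes outside that list, grouped after their names were seen (*Eppk1*, *Mical3* and *Clmn*), had 11 of 21 (52.4%). A low share was thus not general to cytoskeletal genes. The single gene of the ubiquitin and SUMO list, *Rnf213*, kept all 6 of its peaks. In *Son*, 10 of 12 control peaks were kept, and the peak at the 5′ end had a value of 5.52 in control and 15.6 in *Wtap*-HKO livers while 6 of the other 7 matched sites had the lower value in *Wtap*-HKO. In *Spen*, 12 of 13 were kept and 4 further peaks appeared, and in *Kmt2d* 9 of 10 were kept at 2.91 to 9.70 in control and 2.74 to 10.8 in *Wtap*-HKO livers. The 42 genes without a class had 89 bare sites of 281 (31.7%). The 8 interferon-inducible or innate immune genes had 10 of 51 (19.6%), 5 of them in *Nlrp12* and 3 in *Nlrp6*.

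At the sites found in both genotypes the enrichment could be compared. One to one matches, in which a control peak and a *Wtap*-HKO peak overlapped each other and no other peak, numbered 385 in the 99 genes. The median log2 ratio of *Wtap*-HKO over control fold enrichment was -0.07 (interquartile range -0.56 to 0.44), beside 0.01 over all 10499 matched sites. Its sign depended on the matching and on the rule, and it was 0.085 when each control peak was set against its best overlapping peak and 0.036 in the genes with at least 8 control peaks. The *Wtap*-HKO value was the lower at 203 sites and the higher at 180. It was more than 2 times lower at 40 sites (10.4%, 95% Wilson interval 7.72 to 13.8%), beside 12.4% of all matched sites. It was more than 2 times higher at 29 sites (7.53%, 5.30 to 10.6%), beside 14.9% of all matched sites. That second share stepped down with the number of control peaks per gene, from 17.9% for 1 to 14.5%, 14.0%, 11.2% and 9.64% for 2 to 5. Both shares leave out kept peaks that were merged or split between the lists. One to one matches covered 385 of the 533 kept control peaks of the 99 genes, beside 10114 of 11991 in other genes. The part of this matching in the shares was not tested. Nothing here tells a change of methylation from the scaling of the libraries of each genotype, which was not tested.

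**Figure D4:**
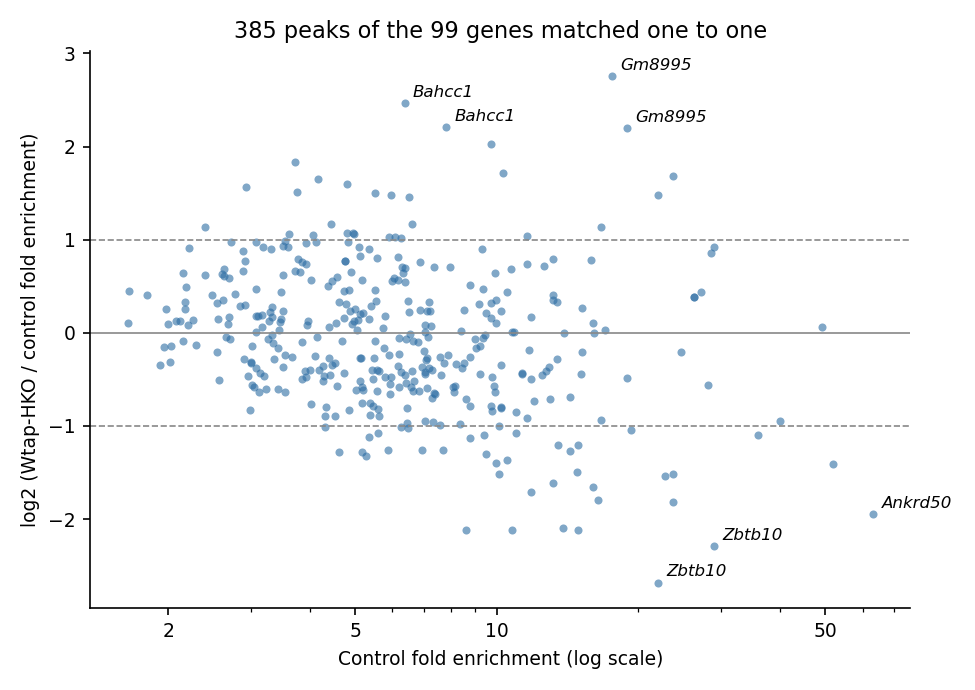
log2 ratio of *Wtap*-HKO over control fold enrichment (vertical) against control fold enrichment (horizontal, log scale) for the 385 peaks of the 99 genes matched one to one, with dashed lines at a 2-fold difference. Of these peaks 40 lie under the lower line and 29 above the upper line; the horizontal axis value is also the denominator of the ratio, so high values tend to lie low on the plot.

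The matched sites farthest from equality were chosen by their size. Lowest was a *Zbtb10* peak (chr3:9265118-9265417), with 22 in control and 3.43 in *Wtap*-HKO livers. A second peak of this zinc finger repressor gene had 29.0 and 5.92, while the peak nearest its 5′ end had 22 and 61.4. The highest control enrichment of all 692 peaks, 63.2, was in the last peak of *Ankrd50* (chr3:38451599-38451869), an endosomal recycling protein, and faced 16.4 in *Wtap*-HKO livers. On the other side, *Gm8995* had a peak of 17.6 in control and 119 in *Wtap*-HKO (chr7:106510982-106511102) and another of 18.9 and 86.5. Its neighbour *Gm1966* had a peak of 23.7 and 75.9, together with peaks of 28.1 and 19 and of 36.0 and 16.8. In *Bahcc1*, a chromatin reader gene, peaks of 6.37 and 7.80 faced 35.2 and 36.1. *Tug1*, a lncRNA, had its last control peak at 9.73 in control and 39.8 in *Wtap*-HKO livers. In *Maf*, the last 3 peaks had 15.9, 3.54 and 26.3 in control and 27.3, 7.02 and 34.4 in *Wtap*-HKO livers. Of the 99 genes, 9 held sites past 2-fold in both directions.

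The list of differential peaks held rows for many of these genes but covered few of their sites. A row of it was given for 43 of the 99 genes (43.4%), beside 32.6% of all genes with a control peak. A gene with more peaks has more places for a row, so this higher share is in part fixed by the rule. By site the order was the other way, and 96 of the 692 control peaks overlapped a row (13.9%, 95% Wilson interval 11.5 to 16.6%), beside 22.3% of all control peaks. There were 23 genes with 1 row, 13 with 2, 6 with 3 and 1, *Apob*, with 6. The genes with 3 rows included *Gm8995*, *Tbc1d24*, a regulator of vesicle traffic, *Zhx3*, a zinc finger and homeodomain repressor, and *Exph5*. Of the 73 rows, 57 lay over peaks of both genotypes, 13 over control peaks alone and 3 over *Wtap*-HKO peaks alone. These were 78.1%, 17.8% and 4.11% of the rows of the 99 genes. Over all rows of the list the shares were 65.9%, 17.9% and 15.3%. Of 49 matched sites of the 99 genes under a row, the *Wtap*-HKO value was lower at 31 and higher at 17. No such split for the sites of other genes under a row stands beside it, so it is not a trait of these genes. Of the 159 bare sites, 19 were under a row (11.9%), beside 23.8% of the bare sites of other genes.

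In *Zhx3* the first control peak had 4.94 in control and 10.4 in *Wtap*-HKO livers and the second had 16.0 and 5.07, both under a row of the list. In *Tbc1d24*, 3 of 7 control peaks were kept and 4 overlapped a row, 2 of them bare sites of 4.64 and 5.96. Its peaks of 13.9 and 9.86 faced values of up to 8.56 and of 6.66. Its other kept peak faced a *Wtap*-HKO value of 12, and the median log2 ratio of its 2 matched sites was -0.17.

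Along the gene, a smaller share of the peaks lay near the ends in the 99 genes than in other genes. Of 678 control peaks that could be placed on a RefSeq span, 10.3% had their midpoint in the first 10%, 29.9% in the final 10% and 59.7% between. For all other genes these shares were 13.6%, 42.3% and 44.0% of 13465 peaks. Spans include introns, so these are not shares of the transcript. A peak edge lay within 200 nt of the 5′ end of the gene for 23 of 692 peaks (3.32%), beside 10.9% in other genes. At the other end it did so for 14 (2.02%), beside 10.3%. A gene has a single end on each side, so a share per peak at the ends falls as the peaks per gene rise. The lower shares at the ends in the 99 genes are therefore in part fixed by the rule.

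Bare sites were found in every part of the span. In the first 10% 20 of 70 control peaks were without a counterpart (28.6%, 95% Wilson interval 19.3 to 40.1%), in the stretch between 85 of 405 (21.0%) and in the final 10% 50 of 203 (24.6%). In all other genes the first 10% had the smallest share, 10.3% of 1836 peaks. Many peaks in the first 10% of other genes lie at the start itself. Without peaks that have an edge within 200 nt of the 5′ end, the shares were 33.3% (16 of 48) in the 99 genes and 15.7% (97 of 617) in other genes. Of the peaks nearest the 5′ end of each of the 99 genes 23 were not kept, and of those nearest the 3′ end 27.

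**Figure D5:**
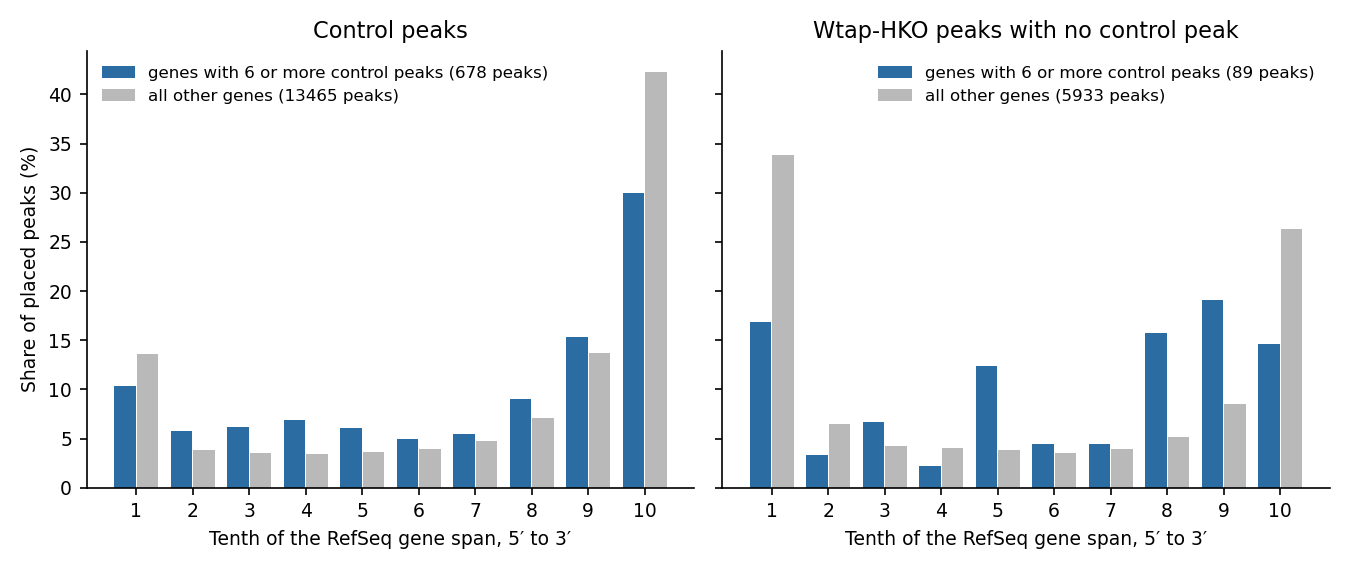
Share of placed peaks (%, vertical) in each 10% of the RefSeq gene span from 5′ to 3′ (horizontal), for control peaks on the left and for *Wtap*-HKO peaks over no control peak on the right. In the 99 genes 29.9% of control peaks lie in the final 10%, beside 42.3% in all other genes, and 16.9% of the *Wtap*-HKO peaks without a control peak lie in the first 10%, beside 33.9%.

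The 90 *Wtap*-HKO peaks over no control peak were 15.5% of the *Wtap*-HKO peaks of these genes (95% Wilson interval 12.8 to 18.7%), beside 35.3% of all *Wtap*-HKO peaks and 22.1% in other genes with a control peak. They lay in 50 of the 99 genes and had a median fold enrichment of 5.21 and a median length of 181 nt. By number of control peaks per gene the share was 30.1% for 1, 19.0% for 2, 15.2% for 3, 15.8% for 4 and 13.5% for 5. The share of the 99 genes was thus near that of genes with 3 to 5 control peaks and is not particular to them. The rule asks for many control peaks, and its part in this share was not tested. Of 89 such peaks that could be placed, 15 (16.9%) had their midpoint in the first 10%, beside 33.9% in all other genes. An edge within 200 nt of the 5′ end was found for 10 of the 90 (11.1%, 95% Wilson interval 6.15 to 19.3%), beside 27.1% in other genes. The 10 lay in *Slfn8* (29.8), *Ahnak* (10.2), *Nlrp12* (9.74), *Parp14* (8.87), *Samd9l* (8.34), *Asxl1* (8.13), *Notch2* (6.52), *Kmt2a* (5.24), *Ankrd50* (5.19) and *Wdr81* (4.55), with the fold enrichment in *Wtap*-HKO livers in brackets. Of these genes *Slfn8*, *Nlrp12*, *Parp14* and *Samd9l* are in the interferon-inducible or innate immune group, which was made after the names were seen, holds 8 of the 99 genes and gave 7 of the 90 peaks. Kupffer cell and leukocyte markers with a peak were 3 of 6 in control and 5 of 6 in the larger *Wtap*-HKO list. The part of these cells in these peaks was not tested.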

How the data were processed

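m6ARIP-seq libraries of mouse liver were sequenced as 150 bp paired-end reads. Per the labels the submitters' processing used fastp 0.19.11, BWA 0.7.12 and HOMER 4.9.1, and the methods name exomePeak for calling peaks on GRCm38. The authors deposited 3 lists in which replicates are combined. The fold enrichment deposited with each peak is a ratio, IP to input, on a linear scale, and the deposited false discovery rate is a log10 score of the caller. The differential list also holds the authors' own p-value, false discovery rate and log2 fold change between the genotypes, which were not used. From that list only positions and gene ids were taken.

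Peaks were assigned to genes by the listed gene id, and members are gene ids with at least 6 control rows. Peaks were compared by exonic bases on the same strand (at least 1 base). Ratios were taken for one to one overlaps and called past 2-fold. Gene spans came from RefSeq (GRCm38.p6), 94 by symbol and 5 by position. Shares carry 95% Wilson intervals. Python 3.11.15, pandas 2.3.3, numpy 2.4.6 and matplotlib 3.10.9 were used, and the functions were tested on simulated data. No test was run, since no list holds replicates.

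The members and gene lists were chosen with earlier results of these data known. Named genes were the 12 with most control peaks, the 5 at each end by difference in peak number and by share of peaks not kept, the 5 with most differential rows, members on the metabolism and plasma protein lists and the gene of the strongest control peak. Genes beside printed sequences, the matched extremes and the starts were named after their values were seen. Alternatives were other membership rules, overlap rules, filters and matching rules.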

Additional observations from a re-analysis of the deposited data

How the results depend on the processing

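No paired analysis was possible because the lists combine the replicates of each genotype, and for the same reason no replicate could be left out. With at least 5 or at least 8 control peaks, 242 or 18 genes were chosen in place of 99. The ratio of *Wtap*-HKO to control peaks, 0.84, turned to 1.44 when genes were chosen by 6 or more *Wtap*-HKO peaks, and stayed between 0.84 and 0.88 under the other alternatives. The share of control peaks without a counterpart, 23.0%, was 28.3% when 50% of the bases had to be shared, 16.6% with at least 8 control peaks, and 40.9%, 28.5%, 16.3% and 5.96% from the lowest to the highest quartile of enrichment. The median log2 ratio, -0.07, was 0.085 with the best overlapping peak and 0.036 with at least 8 control peaks, and as a difference of percentile rank within the lists it was -5.54 points, beside -3.24 in other genes. The share of control peaks under a differential row, 13.9%, was 46.1% when matched by gene id alone. The share of peaks in the final 10% of the span, 29.9%, was 21.0% with at least 8 control peaks, and 2.02% had an edge within 200 nt of the 3′ end. A filter on false discovery rates under 0.01 removed no row of either list. Leaving out genes with rows shared between gene ids, merging rows in both lists and keeping control peaks enriched at least 2-fold were added after the data had been seen and left each value within its interval. Without depths, the smallest enrichment that could be detected in either list is unknown.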
